A study of Homo sapiens with 9 samples.

Results

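The late-numbered miRNAs with reads were the mature miRNAs whose registry number, the digits after miR-, was 1200 or higher and whose raw read counts summed over all 9 libraries came to 30 or more. Of the 1198 mature miRNAs listed, 591 carried such a number and 102 of these reached 30 counts. Members were thus chosen by their summed raw count, and their abundance is given below as a description. Conservation between species was not measured, and the set is therefore called by its number and not as poorly conserved. The threshold fell in a dense part of the count distribution: miR-3115 and miR-3176 with 31 counts each and miR-6516-3p with 30 were just inside, and miR-6798-3p and miR-4796-5p with 29 each and miR-1277-3p with 28 were just outside.

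The libraries came from HCT116, a long-established line of human colorectal carcinoma cells, and from a pair of its sublines. HCT-FU-c, named HCT_FU in the sample labels, was grown under rising concentrations of 5-fluorouracil, an antimetabolite that inhibits thymidylate synthase, and is resistant to it. HCT-Oxa-c, named HCT_Oxa, was grown in the same way under oxaliplatin, a platinum compound that crosslinks DNA. The parental HCT116 cells received neither drug in the labels, each drug is represented by 1 subline, and each line gave 3 biological replicates. The values therefore describe these lines, and a selected subline cannot be told apart from the effect of its drug in general. Total counts ran from 856383 to 2207538 per library, with the replicate 3 library the shallowest of each line, and the most abundant miRNA alone took 40.0% to 57.1% of a library. Amplified reads were counted, not molecules, so limits given below for a count of 0 cover counting error only.

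A miRNA is cut from a hairpin in a longer transcript, usually by the nuclear Microprocessor (Drosha with DGCR8) and then by the cytoplasmic Dicer, and 1 strand of the resulting duplex is loaded into an Argonaute protein. Bases 2 to 8 of the mature strand, the seed, carry most of the pairing to target messages, and the strands of a hairpin are named 5p and 3p by the arm they come from. Registry numbers follow the order of naming, so high numbers belong largely to miRNAs found by deep sequencing after the abundant and conserved families had been named. Many of them sit in introns of host genes, some are mirtrons whose hairpin ends are made by splicing in place of Drosha, and some overlap other classes of small noncoding RNA.

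The sequences of the members that the results turn on are printed here from RefSeq on GRCh38.p14, 5′ to 3′, with the seed in capitals. The first 7 are the most counted members or belong to the same hairpin as one, the next 3 are printed for their differences between lines, and the last pair shares a seed.
miR-3613-5p: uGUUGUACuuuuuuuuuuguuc
miR-1307-3p: aCUCGGCGuggcgucggucgug
miR-1307-5p: uCGACCGGaccucgaccggcu
miR-7974: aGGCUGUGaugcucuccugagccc
miR-3158-3p: aAGGGCUUccucucugcaggac
miR-1301-3p: uUGCAGCUgccugggagugacuuc
miR-3615: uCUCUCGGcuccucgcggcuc
miR-3065-5p: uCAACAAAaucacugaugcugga
miR-3065-3p: uCAGCACCaggauauuguuggag
miR-1260b: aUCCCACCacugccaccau
miR-1268a: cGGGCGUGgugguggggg
miR-1268b: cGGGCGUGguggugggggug
A sequence was matched for 89 of the 102 members. The others were miR-10401-3p, miR-1296-5p, miR-3143, miR-3149, miR-3150a-5p, miR-4286, miR-4326, miR-4659a-3p, miR-4661-5p, miR-4664-3p, miR-5001-3p, miR-6747-3p and miR-9903.

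The seeds of the late-numbered miRNAs were almost all different from each other. The 89 members with a sequence had 88 distinct seeds, and miR-1268a and miR-1268b were the only members with a common seed. Sharing of a seed within the set concerned 2.25% of these 89, against 34.5% of the 333 earlier-numbered miRNAs with 30 or more counts and a sequence. Each share was counted within its own set, and a larger set offers more partners, so the shares are not matched for size. None of the 89 carried the seed of any of these 333, and 8 carried the seed of any other listed miRNA with a sequence. Members and earlier-numbered miRNAs without a sequence could not be compared. As printed above, miR-1268a is contained in miR-1268b. Their summed counts were 57 and 63, they were equal in 6 of the 9 libraries and differed by at most 2 counts in the others, so reads of the pair cannot be told apart and their values are uncertain.

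The mature sequences also differed in length and base content from those of the earlier-numbered set. Of the members, 73.0% were 21 to 23 bases long, against 94.6% of the earlier-numbered miRNAs, and 9 members (10.1%) were shorter than 20 bases, against 3 (0.901%). The median GC content was 54.5% and 45.5%. These are descriptions of sets that differ in abundance as well, with a median summed count of 71 and 527.

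The genomic positions of 97 mature loci of these miRNAs, on 21 chromosomes, were compared with GENCODE 29. An intron of a protein-coding gene on the same strand held 48 of them (49.5%, against 46.3% of the loci of earlier-numbered miRNAs with 30 or more counts), and 21 had no transcript on the same strand. Exons of protein-coding genes held 9 loci, introns of noncoding transcripts 8, and exons of another small noncoding RNA 2. These last were miR-1843 in SCARNA3 and miR-6516-3p in SCARNA16, both small Cajal body RNAs, which guide the modification of spliceosomal RNAs. Across these classes, 8 loci lay opposite another miRNA hairpin.

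The late-numbered miRNAs made up a small part of each library. They held 25708 of 12578549 counts. In HCT116 their share of the library was 0.227%, 0.202% and 0.207% in replicates 1, 2 and 3, with a mean of 0.212% ± 0.0131 (SD, n = 3). In HCT-FU-c it was 0.216%, 0.312% and 0.184%, with a mean of 0.237% ± 0.0663 (SD, n = 3), which overlapped HCT116. In HCT-Oxa-c it was 0.166%, 0.163% and 0.186%, with a mean of 0.172% ± 0.0127 (SD, n = 3), and all 3 libraries lay below all those of HCT116. This share was not tested, since the counts chose the members. The most counted member, miR-3613-5p, held 21% of the members' counts. Of its counts, 1719 were in HCT-FU-c replicate 2, the library with the highest share. It held 656, 949 and 130 counts in HCT116 and 583, 520 and 87 in HCT-Oxa-c. The gap between these lines rests on this member, and without it their shares overlap.

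Within the set, abundance fell steeply. The members with 1000 or more counts were 5, 42 had 100 or more, and 60 had between 30 and 99. The 4 most counted held 50.4% of the members' counts and the 12 most counted 69.5%. All 9 libraries held at least 1 read for 61 members (59.8%, against 82.8% of the earlier-numbered set), and at least 1 library was at 0 for 41. The low-count filter of the test kept 54 of the 102 members and 313 of the 379 earlier-numbered miRNAs. Of the 54, 48 reached the filter's cutoff in libraries of all 3 lines and 6 in libraries of 2 lines, so none reached it in 1 line alone. The filter required 3 libraries at the cutoff, so a member could still owe its entry to 1 line. miR-3065-5p, for example, would not have passed without its HCT-FU-c libraries. The 48 that were not tested had at most 73 counts and are described by counts only.

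The most counted members are given by their level in CPM, the count scaled to a common library size by TMM. A mature miRNA is counted as a whole read, so no correction for length applies, but the preference of adapter ligation for some sequences was not measured and levels of different miRNAs are compared with that limit. miR-3613-5p lies at chr13:49996465-49996486 on the minus strand, in an intron of DLEU2, the noncoding transcript that also hosts miR-15a and miR-16-1. Its level was 446, 678 and 174 CPM in HCT116 replicates 1, 2 and 3. In HCT-FU-c it was 432, 904 and 206 CPM. In HCT-Oxa-c it was 306, 233 and 89.3 CPM. The replicate 3 library was the lowest in each line by a wide margin, and the libraries of the 3 lines overlapped. The other arm of this hairpin, miR-3613-3p, had 10 counts in all libraries together.

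miR-1307-3p came second. The mature strand at chr10:103394301-103394322 on the minus strand lies in the 5′ UTR or an intron of ATP5MD, depending on the transcript, a gene for a small subunit associated with mitochondrial ATP synthase. Its level was 351, 241 and 476 CPM in HCT116, 285, 224 and 514 CPM in HCT-FU-c, and 239, 218 and 536 CPM in HCT-Oxa-c. Replicate 3 was the highest library of every line, and the line means of 356 ± 118, 341 ± 153 and 331 ± 178 CPM (SD, n = 3 each) were within a replicate SD of each other. miR-7974, in an intron of ZNF653 at chr19:11495544-11495567 on the minus strand, had 223, 107 and 476 CPM in HCT116, 104, 84.1 and 275 CPM in HCT-FU-c, and 170, 141 and 340 CPM in HCT-Oxa-c. Its replicate 3 libraries were likewise the highest, and the lines overlapped.

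Among the abundant members, miR-1301-3p and miR-3615 varied little between replicates. miR-1301-3p, in an intron of DNMT3A, which encodes a de novo DNA methyltransferase, was at 91.7, 84.3 and 93.6 CPM in HCT116, 90.7, 114 and 108 CPM in HCT-FU-c, and 68.2, 78.7 and 82.1 CPM in HCT-Oxa-c. All HCT-Oxa-c libraries lay below all others. miR-3615, in the 5′ UTR of SLC9A3R1, the gene of the scaffold protein NHERF1, was at 55.7, 66.5 and 60.1 CPM in HCT116, 71.8, 74.1 and 63.2 CPM in HCT-FU-c, and 68.2, 89.0 and 93.4 CPM in HCT-Oxa-c, so that HCT-Oxa-c lay above HCT116 in every library and overlapped HCT-FU-c. miR-3158-3p, which a pair of hairpins on opposite strands of the DPCD locus can give, had means of 102 ± 40.8, 93.0 ± 25.1 and 120 ± 10.5 CPM (SD, n = 3 each) in HCT116, HCT-FU-c and HCT-Oxa-c. These lines overlapped. The hairpin of miR-1247-5p lies in an exon of DIO3OS, the noncoding transcript opposite the imprinted deiodinase gene DIO3. Its level was 69.3, 75.0 and 17.4 CPM in HCT116 and 36.9 to 61.2 CPM in HCT-FU-c, with 39.0 to 53.7 CPM in HCT-Oxa-c. The low HCT116 library was replicate 3.

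The next members in order were miR-1260b, miR-1307-5p, miR-4286, miR-1296-5p and miR-4326, of which miR-1260b and miR-1307-5p are described with the comparisons below. miR-4286 had means of 24.4 ± 9.71, 38.7 ± 22.2 and 29.2 ± 14.6 CPM (SD, n = 3 each) in HCT116, HCT-FU-c and HCT-Oxa-c, and its replicate 3 libraries held 12.3 to 13.4 CPM in all 3 lines. miR-4326 had means of 25.3 ± 12, 20.1 ± 12.3 and 20.1 ± 7.71 CPM, again with the lowest library of each line in replicate 3. From miR-1247-5p downwards, neighbours in the order of abundance overlapped in their ranges over the 9 libraries. The plot of the 12 most counted members shows these libraries side by side.

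**Figure D1:**
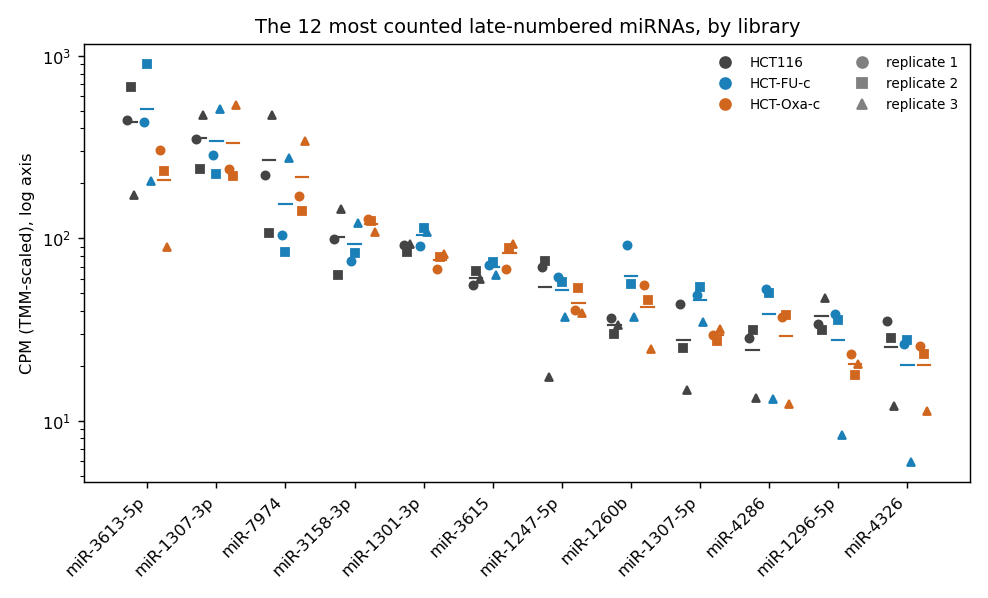
Level of the 12 most counted late-numbered miRNAs in each of the 9 libraries, in CPM after TMM scaling on a log axis. Colours are the lines, symbols the replicate numbers and short bars the mean of 3 libraries, and the replicate 3 libraries (triangles) lie lowest for miR-3613-5p and highest for miR-1307-3p and miR-7974 in every line.

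Oxaliplatin-selected cells were compared with the parental line to ask which of these miRNAs differ in HCT-Oxa-c. None of the 54 members tested was called by edgeR's quasi-likelihood test at a Benjamini-Hochberg adjusted p below 0.05, against 2.45% of all 367 miRNAs tested, and 1 passed an unadjusted p of 0.05, against 10.4% of all. DESeq2 called 0 members as well, against 6.27% of all. The members had a median log2 fold change of -0.26, with 20 higher and 34 lower in HCT-Oxa-c, against a median of -0.01 over all miRNAs tested. For 6 members (11.1%) the libraries of the lines did not overlap, against 16.1% of all miRNAs tested.

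The member with the largest decrease was miR-3065-3p, whose level was 9.51, 5.72 and 9.36 CPM in HCT116 and 1.05, 3.13 and 1.03 CPM in HCT-Oxa-c. The HCT-Oxa-c libraries held 2, 7 and 1 counts, and all lay below those of HCT116. miR-3065-3p and miR-2116-3p passed the filter without any HCT-Oxa-c library, so their values here are a description. Its log2 fold change was -2.08 ± 0.63 (SE, edgeR adjusted p = 0.166), and -2.83 without HCT-Oxa-c replicate 2. The other tested members lower in every HCT-Oxa-c library were miR-1296-5p, miR-1301-3p, miR-1468-5p and miR-2116-3p. miR-1468-5p had a mean of 8.69 ± 0.611 CPM in the parental line and 4.10 ± 3.31 CPM in the subline (SD, n = 3 each), which gave a log2 fold change of -0.97 ± 0.64 (SE, edgeR adjusted p = 0.779). It ran from -0.52 without HCT-Oxa-c replicate 3 to -1.70 without HCT-Oxa-c replicate 2. miR-2116-3p, in an intron of the myosin gene MYO1E, had means of 9.65 ± 1.71 and 5.33 ± 1.41 CPM (SD, n = 3 each) and a log2 fold change of -0.86 ± 0.46 (SE, edgeR adjusted p = 0.584). miR-3615 was the only tested member higher in every library, by a log2 fold change of 0.46 ± 0.23 (SE, edgeR adjusted p = 0.536). None of these differences passed the test.

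Since same-numbered libraries moved together around their line means, the comparison was also fitted with the replicate number as a block. This joint movement set replicate 3 apart from replicates 1 and 2, which were not matched by number more closely than with each other. In that model 1 of 54 members was called, against 14.7% of all miRNAs tested. It was miR-3613-5p, which was lower in HCT-Oxa-c by a log2 fold change of -0.98 ± 0.21 (SE, edgeR adjusted p = 0.00193) with the block and by -1.05 ± 0.66 (adjusted p = 0.741) without it. Within each replicate number its HCT-Oxa-c level was below that of HCT116, at 306 against 446, 233 against 678 and 89.3 against 174 CPM. Without HCT116 replicate 2 the unblocked value was -0.51.

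**Figure D2:**
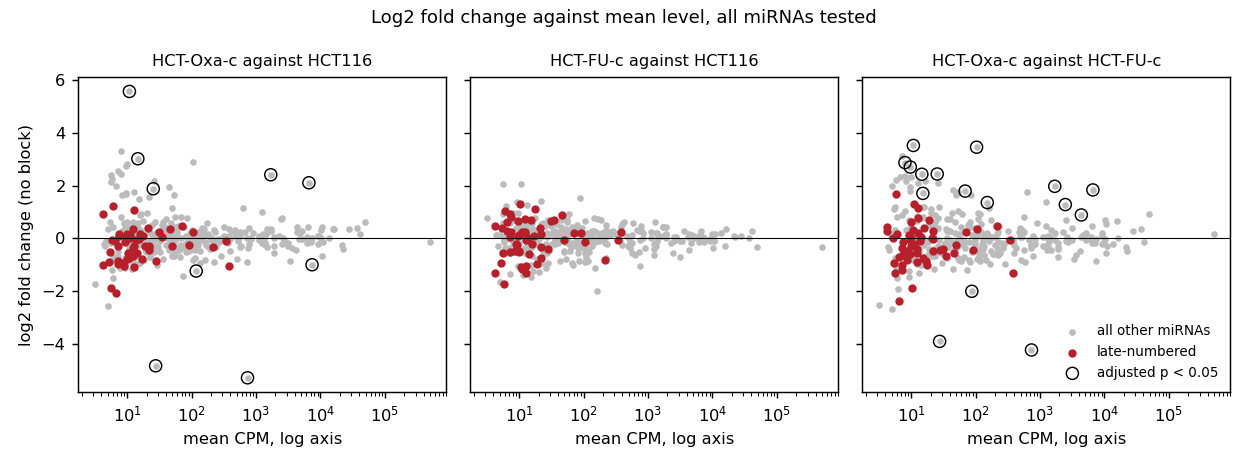
Log2 fold change in the model without a block against mean CPM over all libraries (log axis) for the 367 miRNAs tested, in 3 comparisons. Late-numbered miRNAs are red, all others grey and those with an adjusted p below 0.05 ringed, and no ring falls on any of the 54 late-numbered miRNAs.

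In HCT-FU-c against HCT116 none of the 54 members was called by edgeR, nor was any of the 367 miRNAs tested (0%), and 0 members passed an unadjusted p of 0.05, against 4.09% of all. DESeq2 called 0 members, against 1.09% of all. The members had a median log2 fold change of 0.06, with 29 higher and 25 lower, against 0.02 over all miRNAs tested. The libraries of 2 members (3.7%) did not overlap, against 8.72% of all.

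These were miR-1260b and miR-2116-3p. The level of miR-1260b was 36.7, 30.01 and 33.4 CPM in HCT116 and 92.2, 56.2 and 36.9 CPM in HCT-FU-c. Every HCT-FU-c library was higher, with replicate 3 closest to the parental level, and the HCT-Oxa-c libraries at 55.6, 46.1 and 24.6 CPM overlapped both. Its log2 fold change in HCT-FU-c was 0.89 ± 0.41 (SE, edgeR adjusted p = 0.913), and 0.46 without HCT-FU-c replicate 1. With the replicate block it was 0.86 ± 0.29 (SE, adjusted p = 0.0899). The short sequence of miR-1260b is known to resemble the end of a transfer RNA, and reads from that source cannot be told apart in these counts. miR-2116-3p was at 7.56, 6.83 and 5.96 CPM in HCT-FU-c and at 9.51, 11.4 and 8.02 CPM in HCT116, a log2 fold change of -0.51 ± 0.46 (SE, edgeR adjusted p = 0.997).

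With the replicate block 1 member was called in HCT-FU-c, against 5.45% of all miRNAs tested. It was miR-7974, which was lower by a log2 fold change of -0.76 ± 0.20 (SE, edgeR adjusted p = 0.0230). Its levels were 104 against 223, 84.1 against 107 and 275 against 476 CPM in replicates 1, 2 and 3. Without the block the value was -0.80 ± 0.63 (adjusted p = 0.997), and leaving out HCT116 replicate 3, the library with the highest level, brought it to -0.10.

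The sublines were then compared directly, HCT-Oxa-c against HCT-FU-c. The comparisons share libraries and their values are given side by side only. None of the 54 members was called by edgeR without a block, against 4.36% of all miRNAs tested, and 2 passed an unadjusted p of 0.05, against 16.9% of all. These were the arms of the miR-3065 hairpin, whose values are a description because of the filter, as given below. DESeq2 called 1 member, miR-3065-3p, against 11.7% of all. The 54 members had a median log2 fold change of -0.23, with 21 higher and 33 lower, against -0.07 over all miRNAs tested. The libraries of 5 members (9.26%) did not overlap, against 22.9% of all. They were miR-1301-3p, miR-1307-5p, miR-3200-3p, miR-3065-5p and miR-3065-3p, and every one was lower in HCT-Oxa-c, against 10.6% of all miRNAs tested that lay lower without overlap.

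The hairpin of miR-3065 lies at chr17:81125877-81125955 on the plus strand, opposite the hairpin of miR-338 at chr17:81125883-81125949 on the minus strand, in the AATK locus. Both hairpins are printed to show how each arm of one faces an arm of the other, with the mature strands in capitals.
MIR3065: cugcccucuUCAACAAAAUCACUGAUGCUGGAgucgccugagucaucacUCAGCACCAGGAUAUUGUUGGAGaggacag
MIR338: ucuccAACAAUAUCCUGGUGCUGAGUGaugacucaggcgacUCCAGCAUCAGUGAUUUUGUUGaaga
miR-3065-3p was at 12.9, 8.41 and 8.34 CPM in HCT-FU-c and at 1.05, 3.13 and 1.03 CPM in HCT-Oxa-c, without overlap. Its log2 fold change was -2.36 ± 0.62 (SE, edgeR adjusted p = 0.0696), and with the replicate block it was -2.31 ± 0.68 (SE, adjusted p = 0.0145). Without HCT-Oxa-c replicate 2 the unblocked value was -3.12. miR-3065-5p was at 21.9, 24.7 and 8.34 CPM in HCT-FU-c and at 3.67, 7.16 and 4.11 CPM in HCT-Oxa-c, also without overlap, while HCT116 at 2.72, 15.01 and 4.01 CPM overlapped HCT-Oxa-c. Its log2 fold change was -1.86 ± 0.70 (SE, edgeR adjusted p = 0.196), and with the block -1.93 ± 0.54 (SE, adjusted p = 0.0111). Both calls in the blocked model rest on few reads. The HCT-Oxa-c libraries held 7, 16 and 4 counts of the 5p arm and 2, 7 and 1 of the 3p arm. The 3p arm passed the filter only through HCT116 and HCT-FU-c, so its calls are a description. The 5p arm would not have passed without HCT-FU-c, the line where it was highest, so its calls are a description as well. From the opposite strand, miR-338-5p and miR-338-3p had 8 and 3 counts in all 9 libraries together, against 138 and 79 for the miR-3065 arms.

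The replicate block called 5 members between the sublines, against 26.4% of all miRNAs tested. Beside both arms of miR-3065, miR-3613-5p was lower in HCT-Oxa-c by a log2 fold change of -1.21 ± 0.21 (SE, edgeR adjusted p = 0.000175 with the block, 0.416 without). miR-5001-3p was lower by -1.06 ± 0.39 (SE, adjusted p = 0.0470 with the block, 0.584 without), from 24.2, 44.2 and 13.1 CPM in HCT-FU-c to 15.2, 21 and 3.08 CPM in HCT-Oxa-c. HCT-Oxa-c was the lower of the sublines within each replicate number, although their ranges overlapped. miR-7974 was higher in HCT-Oxa-c by 0.59 ± 0.20 (SE, adjusted p = 0.0304 with the block, 0.807 without). Without HCT-FU-c replicate 2 the unblocked values of miR-3613-5p and miR-5001-3p were -0.63 and -0.49, and without HCT-Oxa-c replicate 3 that of miR-7974 was 0.07.

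miR-1307-5p had 49.1, 54.1 and 34.6 CPM in HCT-FU-c and 29.4, 27.3 and 31.8 CPM in HCT-Oxa-c, a log2 fold change of -0.65 ± 0.39 (SE, edgeR adjusted p = 0.508). In HCT116 it was at 43.5, 25.01 and 14.7 CPM and overlapped both sublines. miR-3200-3p, in an intron of OSBP2, which encodes an oxysterol-binding protein, was at 20.4, 34.2 and 20.3 CPM in HCT-FU-c and 19.9, 16.6 and 18.5 CPM in HCT-Oxa-c, where the closest libraries differed by less than 1 CPM. In the plot of both models the standard errors of miR-3613-5p, miR-7974 and miR-5001-3p are smaller with the block, while those of miR-3065-3p and miR-2116-3p are not.

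**Figure D3:**
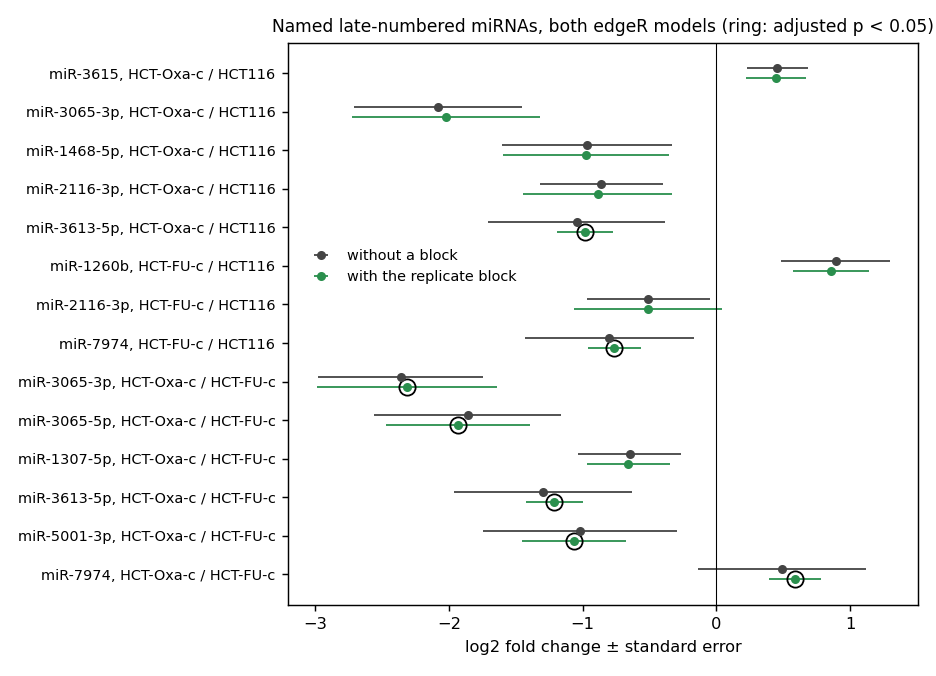
Log2 fold change with its standard error for the named late-numbered miRNAs in the comparison written beside each, without a block (grey) and with the replicate number as a block (green). Rings mark an adjusted p below 0.05, which only blocked values reached, for miR-3613-5p, miR-7974, miR-3065-3p, miR-3065-5p and miR-5001-3p. Those of the miR-3065 arms are a description, since neither arm would have passed the filter without HCT-FU-c.

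The arms of a hairpin come from 1 precursor, and the share of the 5p arm is a ratio within a library. The members came from 95 hairpin names, and for 7 of these both arms were members. In 33 more the other arm was listed with fewer than 30 counts. The 3p arm dominated miR-1307, where the 5p arm took 10.4% of the counts of both arms. Its share was 11%, 9.41% and 3.00% in the HCT116 libraries. In HCT-FU-c it was 14.7%, 19.4% and 6.30%. In HCT-Oxa-c it was 11%, 11.1% and 5.61%. Replicate 3 had the lowest share in each line, and the lines overlapped.

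For miR-3065 the 5p arm took 63.6% of the counts over all libraries. The share was 22.2%, 72.4% and 30% in the HCT116 libraries. In HCT-FU-c it was 63.0%, 74.6% and 50%. In HCT-Oxa-c it was 77.8%, 69.6% and 80%, so that the parental line spanned most of the range. The other hairpins were miR-1306 at 66.5%, miR-1910 at 75.6%, miR-2355 at 30.5%, miR-3942 at 74.5% and miR-10399 at 51.4%. The hairpin of miR-1306 lies in a coding exon of DGCR8, the partner of Drosha, and that of miR-10399 in the 3′ UTR of ZC3HAV1, which encodes an antiviral RNA-binding protein. Single libraries of these hairpins held few reads and their shares ran from 0 to 100%.

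**Figure D4:**
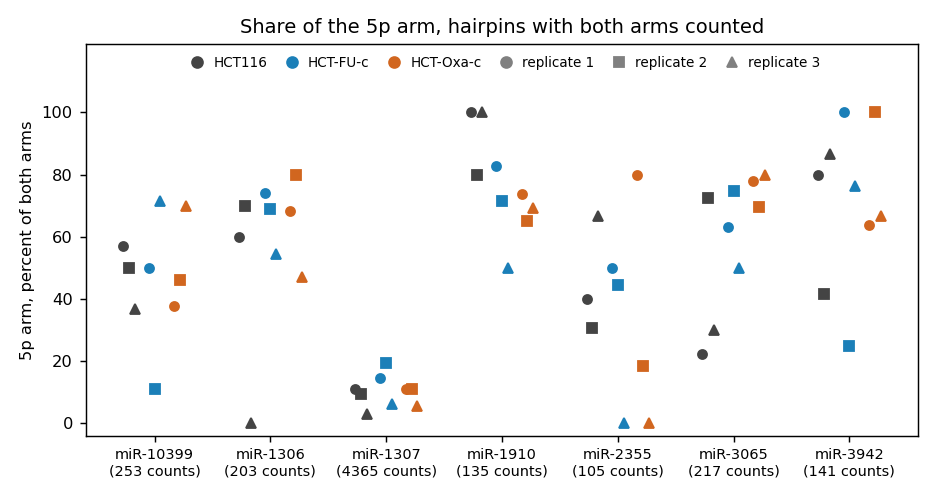
Share of the 5p arm in the counts of both arms, in percent, for the 7 hairpins with both arms in the set, with 1 point per library (colours are lines, symbols replicate numbers) and the summed count under each name. The points of miR-1307, with 4365 counts, stay between 3.00% and 19.4%, while hairpins with 105 to 253 counts scatter widely.

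Further, 3 groups of late-numbered miRNAs known by their origin were looked at, each by registry number. Of 11 numbers known to overlap or resemble another class of noncoding RNA, 6 miRNAs were listed and 2 were members, miR-1246 and miR-1260b. At their own loci both had no transcript on the same strand. The list did not hold miR-1843 and miR-6516-3p, which lie in small Cajal body RNAs. miR-1246, whose sequence is known to match a fragment of the U2 spliceosomal RNA, was not tested. HCT116 held 2, 0 and 23 of its counts, HCT-FU-c 2, 0 and 3, and HCT-Oxa-c 13, 5 and 21. Its highest library was replicate 3 in every line. Of 11 mirtron numbers, 9 miRNAs were listed and only miR-1226-3p was a member. Its hairpin fills a DHX30 intron of 75 bases from splice site to splice site, the only one of 70 hairpins with a known span to do so within 5 bases. HCT116 held 21, 28 and 2 counts of miR-1226-3p, HCT-FU-c 20, 30 and 11, and HCT-Oxa-c 19, 37 and 2, so that the lines overlapped.

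Of 11 numbers with a mouse miRNA of the same number, 13 miRNAs were listed, 10 were members and 7 were tested. In HCT-Oxa-c against HCT-FU-c their median log2 fold change was -0.65, against -0.07 over all miRNAs tested, with values from -2.36 to -0.04. None was called without the block and 2, the miR-3065 arms, were called lower with it, where 26.4% of all miRNAs tested were called. Neither arm would have passed the filter without HCT-FU-c, so these calls are a description. Against HCT116 HCT-Oxa-c had a median of -0.11 and HCT-FU-c of 0.28, with 0 called in either model. The arms of miR-1307 and of miR-3065 are 4 of these 7, so the members are not independent. Among the 3 members of this list that were not tested, miR-3074-5p lies opposite the hairpin of miR-24-1. HCT116 held 16, 3 and 0 counts of it, HCT-FU-c 4, 8 and 0, and HCT-Oxa-c 5, 2 and 0, while miR-24-1-5p from the other strand had 2, 4 and 0, then 18, 10 and 1, and then 16, 29 and 4.

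The untested members were described without a test. Their libraries did not overlap for 6 of 48 members in HCT-Oxa-c against HCT116 (12.5%), 3 in HCT-FU-c against HCT116 (6.25%) and 5 in HCT-Oxa-c against HCT-FU-c (10.4%), where the shares over all miRNAs tested were 16.1%, 8.72% and 22.9%. miR-3189-3p, named after its values were seen, lies in an intron of GDF15, a stress-induced cytokine gene that p53 activates. It held 5, 3 and 13 counts in HCT116 and 4, 2 and 6 in HCT-FU-c, and no read in any HCT-Oxa-c library. The limit of 3 counts per library corresponds to 2.00 CPM on average in HCT-Oxa-c. In HCT116 the level was 3.40, 2.14 and 17.4 CPM, so that its mean rests on replicate 3, and several of these counts are themselves at or near 3.

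Replicate 3 stood apart from replicates 1 and 2 across the whole table, and the labels give no batch or date. With line and replicate 3 as factors, edgeR called 24 of 54 members, against 50.7% of all miRNAs tested. In replicate 3, 13 members were higher and 11 lower, against 28.9% and 21.8% of all. Of the 24, 20 had reached the filter's cutoff both in replicate 3 and in the other libraries. miR-4433b-5p reached it in replicate 3 libraries only, and miR-10401-3p, miR-5094 and miR-1249-3p in libraries of replicates 1 and 2 only. For these 4 the filter fixed the direction and their values are a description. The filter required 3 libraries at the cutoff. miR-1294, miR-1266-5p, miR-3942-5p and both arms of miR-10399 reached it in 3 replicate 3 libraries and in 1 or 2 others. miR-4796-3p reached it in 2 of each kind, and all these would not have passed without replicate 3. miR-4326 with 2 replicate 3 libraries, and miR-5001-3p, miR-7976 and miR-1226-3p with 1, passed only with replicates 1 and 2. The values of all these members are a description as well. The largest rises were in miR-4433b-5p, miR-10399-5p, miR-1294, miR-3942-5p, miR-1266-5p and miR-1255a, with log2 fold changes from 6.04 down to 1.91. miR-4433b-5p had 14, 7 and 10 counts in the replicate 3 libraries of HCT116, HCT-FU-c and HCT-Oxa-c and 1 count in the 6 other libraries together. The largest decreases were in miR-10401-3p, miR-5094, miR-5001-3p, miR-7976, miR-3613-5p and miR-1249-3p, from -3.11 to -1.65. For miR-3613-5p the value was -1.66 ± 0.22 (SE, edgeR adjusted p = 2.76e-06). miR-1307-3p was higher in replicate 3 by 0.98 ± 0.16 (SE, adjusted p = 2.97e-05). Replicate 3 was present in each line, and the line comparisons with replicates 1 and 2 only called 1, 1 and 4 of 59 members in the order given above, against 11.3%, 3.42% and 17.6% of all miRNAs tested in that setting.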

How the data were processed

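Small RNA libraries (NEXTflex Small RNA-Seq v3, MiSeq) of HCT116, HCT-FU-c and HCT-Oxa-c, 3 biological replicates each, were analysed. The authors deposited 1 table with the raw read count of each mature miRNA per library and, beside it, a signal in which each library was divided by its own size factor, which was not used here. The submitters' processing notes name CASAVA 1.8, Bowtie 1.1.2, DESeq2 and GRCh38.p7, and the use of strand in counting and the handling of reads that match several miRNAs are not given in the sources used here. The labels gave the line and replicate number of each library, and columns were matched by name.

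Raw counts of all 1198 miRNAs were normalized by TMM and tested with edgeR 4.0.16 (R 4.3.3), quasi-likelihood F test, all 9 libraries, line as factor, after filterByExpr (minimum count 10, minimum total 15), which kept 367. Benjamini-Hochberg adjustment ran over the 367, with a threshold of 0.05. edgeR added a prior count of 0.125 to log2 fold changes, and standard errors are the log2 fold change divided by the square root of F. Depth was 856383 to 2207538 counts per library, so that 3 counts correspond to 1.34 to 4.01 CPM.

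Same-numbered libraries deviated together from their line means, with correlations of 0.411 to 0.764, against -0.684 to 0.614 between different numbers. All same-numbered values being above 0.1, the replicate numbers were treated as pairs, on the numbers in the labels alone. Replicate 1 of a line against replicate 2 of another gave 0.417 to 0.614. Replicate 3 against replicate 1 or 2 gave -0.684 to -0.502. The correlations thus set replicate 3 apart and do not show that replicates 1 and 2 are matched by number. The biological coefficient of variation was 0.458 without and 0.174 with the replicate block. The labels call the replicates biological.

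The members and lists were chosen with earlier results of these data known. Members were named if among the 12 most counted, among the 3 largest rises or decreases without overlap in a comparison, called in either model, sharing a hairpin with another member, on 1 of the 3 lists, next to the threshold of 30, or among the 6 largest differences of replicate 3 in each direction. Alternatives covered normalization, DESeq2 1.42.0, filters, the libraries and covariates in the model and each library left out. The use of replicates 1 and 2 only was chosen after seeing the data. The test was checked on simulated counts. Positions and sequences are from RefSeq (GRCh38.p14) and gene context from GENCODE 29.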

Additional observations from a re-analysis of the deposited data

How the results depend on the processing

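No named difference reversed its direction under any alternative run. Without a block 0 members were called in the 3 comparisons of lines, and 0 to 0 when each library was left out in turn. With a library left out, 1.01% to 2.99% of all miRNAs tested were called in HCT-Oxa-c against HCT116 and 0% in HCT-FU-c against HCT116. In HCT-Oxa-c against HCT-FU-c 1.51% to 5.79% of all were called. With the replicate block, which rests on the pairing by replicate number, 1 was called in HCT-Oxa-c against HCT116, 1 in HCT-FU-c against HCT116 and 5 in HCT-Oxa-c against HCT-FU-c, and it changed no other call of a named member. With replicates 1 and 2 only, a setting chosen after seeing the data, the counts were 1, 1 and 4, against 11.3%, 3.42% and 17.6% of all miRNAs tested there. With no filter beyond 1 count they were 1 in HCT-Oxa-c against HCT116 and 1 in HCT-Oxa-c against HCT-FU-c, against 1.34% and 2.00% of all, and DESeq2 called 1 in the latter, against 11.7%. The cause of these differences was not tested. The other scalings, the stricter filter and the models of 6 libraries called 0 members in all 3 comparisons. With the other scalings 1.91% to 3.27%, 0% and 4.63% to 4.9% of all were called, in the order above. The stricter filter tested 12 members, and 1.73%, 0.433% and 3.9% of all were called. The models of 6 libraries tested 44 to 46 members, and 2.06%, 0% and 3.8% of all were called.

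For replicate 3 against replicates 1 and 2, 24 of 54 members were called, against 50.7% of all miRNAs tested. With a library left out, 20 to 27 members were called where 60 to 66 were tested, against 39.1% to 48.1% of all. With at least 10 counts required in every library 7 of 12 were called, where fewer miRNAs are tested and 60.2% of all were called. The call of miR-1249-3p was lost without HCT116 replicate 1, 2 or 3, HCT-FU-c replicate 2 or HCT-Oxa-c replicate 2 or 3, with adjusted p up to 0.172. That of miR-5094 was lost without HCT116 replicate 3, HCT-FU-c replicate 1 or 3 or any HCT-Oxa-c library, up to 0.192, and that of miR-1266-5p without HCT116 replicate 3 (adjusted p = 0.0820). Without HCT-FU-c replicate 3, miR-10401-3p and miR-1249-3p moved to -6.81 and -2.71.

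The members' share of a library moved with its definition. In HCT116, HCT-FU-c and HCT-Oxa-c it was 0.457%, 0.447% and 0.331% without the most abundant miRNA in the total, and 0.130%, 0.146% and 0.0993% from number 3000 on. In HCT116 and HCT-Oxa-c it was 0.226% and 0.186% from number 1000 on, 0.237% and 0.191% with 1 or more counts, and 0.184% and 0.151% with 100 or more. Depth limits the precision of the members, since 60 of 102 had 30 to 99 counts over all 9 libraries. For a library at 0, the limit of the expected count was taken as 3, which covers counting error only.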

Other observations

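Below the threshold, 489 late-numbered miRNAs were listed with fewer than 30 counts over all 9 libraries, and 379 of them had 1 to 9. Among the listed mirtrons these included miR-1229-3p with 22 counts, miR-1227-3p with 20 and miR-1224-5p with 13. Among the listed miRNAs known to overlap or resemble another noncoding RNA, miR-1291 had 4 counts and miR-1248 and miR-3648 had 3 each. miR-4454 had 1, while miR-1260b had 614.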
